A study of Homo sapiens with 8 samples.

Results

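The 9 genes described here, ATM, ATR, ATRIP, CHEK1, CHEK2, TP53BP1, CLSPN, WEE1 and CDC25A, encode the core of the DNA damage checkpoint, and they are 9 of 19970 protein-coding genes whose chromatin accessibility was examined. For each gene, every open region that touched the gene span (GENCODE release 44, build hg38) extended by 5 kb on each side was taken. Joined across libraries, these regions formed 135 distinct sites out of 547779 in the whole data set.

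The data are ATAC-seq libraries, made with the transposase Tn5, which cuts and tags open DNA, from U2OS cells, a human osteosarcoma line. Wild-type (WT) cells and ASH1L knockout (KO) cells were either left unchallenged (WT no UV and KO no UV) or irradiated with 20 J per square metre of UV-C and harvested 3 h later (WT 3h post UV and KO 3h post UV), with 2 biological replicates in each of the 4 groups according to the sample titles. The knockout cells carry CRISPR-Cas9 cuts in ASH1L, a histone methyltransferase gene, and were isolated as colonies from single edited cells, so a property of the clone cannot be told apart from the loss of ASH1L. All cells were treated with DNase before harvest to remove DNA of dead cells.

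When DNA is damaged or replication stalls, ATM and ATR start a kinase cascade. ATM responds mainly to double-strand breaks, and ATR, carried by its partner ATRIP, to single-stranded DNA coated by RPA, which forms after UV when replication or excision repair exposes it. The mediators TP53BP1 and CLSPN relay the signal to the effector kinases CHEK2 and CHEK1. Inhibition of the phosphatase CDC25A and the activity of the kinase WEE1 then keep cyclin-dependent kinases off and hold the cell cycle. Most of the cascade is switched by phosphorylation, which open chromatin does not report. The lists show where DNA is accessible and how strongly, relative to other regions of the same library.

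Sequences of the regions on which the results turn come first. They are written 5′ to 3′ in lower case, and capitals mark every match to the motifs searched on both strands. These were E2F (TTTCGCGC, TTTGGCGC or TTTCCCGC), NRF1 (CGCATGCG), ETS (CCGGAAG), NFY (CCAAT), SP1 (GGGCGG), AP-1 (TGACTCA or TGAGTCA) and, added after the sites had been seen, the CTCF core. Neighbouring or overlapping matches merge into 1 run of capitals. The promoter stretches are RefSeq sequence of build GRCh38.p14 upstream of a transcription start, without exonic bases. CLSPN is shown because its promoter was the only one of the 9 called after UV, and ATM because its 4 UV values lay below its 4 unchallenged values. CDC25A is shown because it had the highest mean rank, and ATR as the kinase that responds to single-stranded DNA coated by RPA. CHEK1 is shown because its open region lies at RefSeq starts downstream of the start of the reference transcript.
CLSPN promoter, chr1:35769979-35770178, minus strand: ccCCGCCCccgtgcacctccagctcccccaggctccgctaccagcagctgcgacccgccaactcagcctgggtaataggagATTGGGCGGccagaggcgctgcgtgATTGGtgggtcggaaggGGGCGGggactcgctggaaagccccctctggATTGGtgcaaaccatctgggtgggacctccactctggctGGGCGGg
ATM promoter, chr11:108222844-108223043, plus strand: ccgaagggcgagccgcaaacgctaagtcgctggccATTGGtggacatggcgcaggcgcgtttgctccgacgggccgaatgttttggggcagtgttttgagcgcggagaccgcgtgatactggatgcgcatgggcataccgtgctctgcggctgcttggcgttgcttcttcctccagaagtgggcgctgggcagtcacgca
CDC25A promoter, chr3:48188418-48188617, minus strand: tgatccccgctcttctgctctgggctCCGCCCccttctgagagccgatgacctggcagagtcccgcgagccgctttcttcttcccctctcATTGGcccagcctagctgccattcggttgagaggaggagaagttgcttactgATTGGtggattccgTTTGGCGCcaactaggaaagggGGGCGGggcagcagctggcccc
ATR promoter, chr3:142578734-142578933, minus strand: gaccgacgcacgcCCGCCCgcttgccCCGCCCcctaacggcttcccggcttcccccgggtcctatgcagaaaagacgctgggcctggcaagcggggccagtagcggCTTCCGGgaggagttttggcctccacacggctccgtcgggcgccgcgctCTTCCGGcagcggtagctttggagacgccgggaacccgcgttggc
CHEK1 promoter, chr11:125626035-125626228, plus strand: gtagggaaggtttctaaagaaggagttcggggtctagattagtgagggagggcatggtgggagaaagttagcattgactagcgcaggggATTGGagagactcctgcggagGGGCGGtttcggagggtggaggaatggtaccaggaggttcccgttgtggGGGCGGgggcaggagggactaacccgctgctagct

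RefSeq windows of 300 bases, from 250 before to 50 after a start, were given for 8 of the 9 genes, 12 windows in all, some of which overlap, and WEE1 had none. CCAAT was found in windows of 7 of the 8 genes, every one but ATR, and in 34.6% of all 35116 such windows. The CLSPN and CHEK2 windows held 3 matches each and the CDC25A window 2. GGGCGG was found for 7 of the 8 genes, every one but ATM, with 4 matches in the CLSPN window, against 45.0% of all windows. The ETS letters were present for ATM, ATR and TP53BP1, against 10.3% of all windows, with 2 matches upstream of ATR. The E2F letters were present for CDC25A and CLSPN, against 2.74% of all windows. E2F factors drive genes of the G1/S transition, and in the printed CDC25A stretch the match lies between a CCAAT and a GGGCGG match, while the CLSPN match lies downstream of the start and is not printed. NRF1, AP-1 and CTCF letters were in none of the 12 windows, against 2.02%, 4.95% and 0.470% of all windows. Around the summits of internal sites open in all 8 lists, AP-1 letters were found in ATR (intron 25) and TP53BP1 (intron 15). Among all non-promoter sites open in all lists, 24.0% held them. The TP53BP1 intron 15 site also held the CTCF core, against 1.75% of those sites. The internal site of CLSPN and the alternative start of TP53BP1 held neither. The TP53BP1 window lies at the alternative start, at −17.6 kb, and not at the promoter whose accessibility is given for this gene. The counts per gene and the shares per window are not on the same footing, since ATM, ATRIP and CHEK1 have several windows each.

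The 8 lists held 158198 to 220783 regions, and library depth, the mean pileup over the genome recovered from fold enrichment and p-value, ran from 1.39 to 5.87. KO no UV replicate 1 was the deepest library and KO no UV replicate 2 the shallowest. Because fold enrichment was not normalised between libraries, each region was given its percentile of fold enrichment within its own list, where 100 is the strongest region. Where 4 values are given for a genotype, they follow the order no UV replicates 1 and 2, then 3h post UV replicates 1 and 2. A promoter was the strongest region within 1 kb of the MANE Select start, the reference transcript agreed between Ensembl and RefSeq. Of the 19970 genes, 11817 had a promoter region in all 8 lists, all 9 checkpoint genes among them. The median percentile of these promoters was lower after UV by 2.84 points, and their normal score, the rank mapped to a normal distribution, by 0.214. By library, their median percentile was 90.9 and 90.2 in WT no UV and 87.7 and 82.7 in WT 3h post UV. In knockout cells it was 92.2 and 89.7 without UV and 87.1 and 88.8 after UV. This median was thus lower in every UV list than in every unchallenged list, and lowest in WT 3h post UV replicate 2. Among marker genes, the promoters of VIM, RUNX2 and COL1A1 of the mesenchymal and bone list (3 of 6) were open in all 8 lists, those of blood in 0 of 4 with PTPRC and CD3E in none, those of epithelium in 2 of 3 (EPCAM and KRT5), liver 0 of 2 and neuron 1 of 2 (SNAP25). The ASH1L promoter was open in all 8 lists at a percentile of 81.1 to 97.6, which says nothing about the cuts inside the gene.

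Apart from that of ATRIP, the promoters of the checkpoint genes were among the most accessible regions of every list. In all 8 lists, 8 of the 9 promoters stood in the top quartile (percentile 75 or higher), whereas 59.4% of all tested promoters did. Ordered by mean percentile, CDC25A stood at 98.4 ± 1.31 (SD, n = 8), ATM at 97.8 ± 2.59, ATR at 97.1 ± 1.82, WEE1 at 95.4 ± 3.62, TP53BP1 at 95.0 ± 0.919, CHEK2 at 93.5 ± 2.80, CHEK1 at 91.7 ± 2.42, CLSPN at 89.8 ± 5.85 and ATRIP at 69.5 ± 4.55. The only neighbours in this order whose difference had the same sign in all 8 lists were CLSPN and ATRIP, 20.4 ± 8.13 points apart. The other 7 neighbouring pairs kept their order in 4 to 6 of the 8 lists, so their order is not resolved. The median of the 9 genes was 95.0, against 88.3 for all tested promoters.

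**Figure D1:**
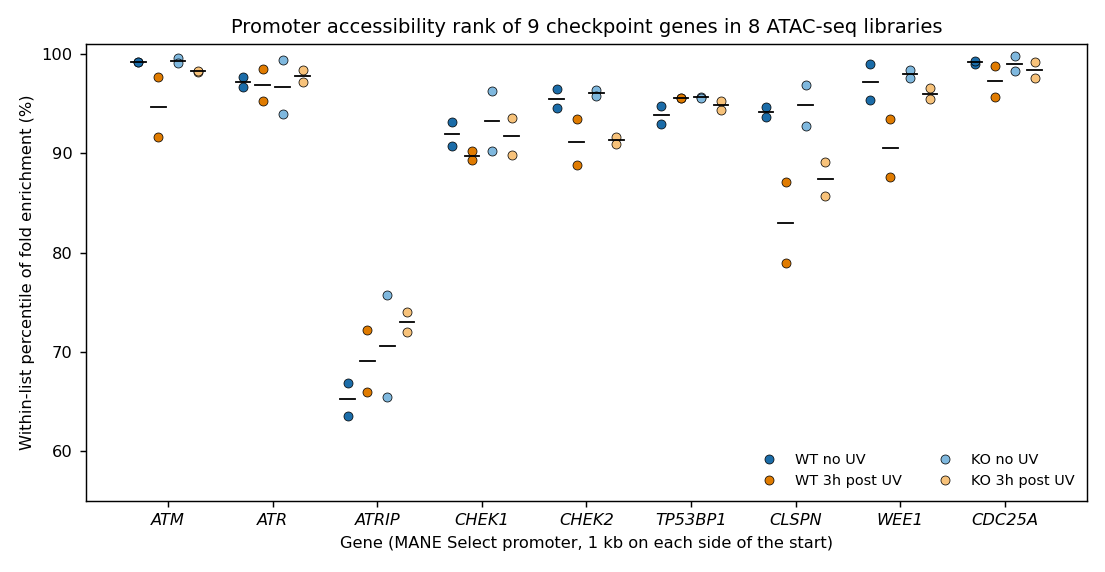
Within-list percentile of fold enrichment (y axis, in percent, drawn from 55) of the promoter region of each of the 9 genes (x axis) in the 8 libraries; each dot is a library, coloured by group, and each bar the mean of the 2 libraries of a group. ATRIP lies between 63.5 and 75.7, apart from the other 8 genes, and the 4 CLSPN values after UV (79.0 to 89.1) lie below its 4 unchallenged values (92.7 to 96.9).

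After UV, the CLSPN promoter fell, by a call that held in 6 of 19 alternative settings, and the promoters of ATM and CHEK2 had values in the 4 UV lists that lay below those in the 4 unchallenged lists without passing the test. The remaining 6 promoters, ATR, ATRIP, CHEK1, TP53BP1, WEE1 and CDC25A, had overlapping values. By limma on the normal scores with Benjamini-Hochberg adjustment over all 11817 promoters, 1 of the 9 was called for UV, in a background where 6.77% of all promoters were called and 6.17% were called lower. No overlap with lower values after UV was seen for 3 of 9 promoters, and for 21.1% of all promoters. No overlap with higher values was seen for 0 of 9, against 1.07% of all. The mean percentile was lower after UV for 6 of 9 promoters, against 79.7% of all, and the median difference was −1.85 points over the 9 genes and −2.84 points over all promoters. Which of these medians was the lower depended on the processing, since with regions limited to a q-value of 0.01 they were −1.29 and −1.10 points, and in centred log2 fold enrichment −0.173 and −0.0340. The median of the 9 genes was −2.93 points without KO no UV replicate 2 and −2.78 without KO 3h post UV replicate 2, and that of all promoters −1.81 without WT 3h post UV replicate 2.

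ATM (chr11:108223044-108369102, plus strand), the kinase that responds to double-strand breaks, has a bidirectional promoter that it shares with NPAT, a gene needed for histone transcription in S phase. Its promoter region, chr11:108222362-108223536 after joining all lists, peaked at −0.156 kb from the start. The percentile was 99.2 and 99.2 in WT no UV, 97.7 and 91.6 in WT 3h post UV, 99.6 and 99.1 in KO no UV, and 98.2 and 98.3 in KO 3h post UV. Every UV value was below every unchallenged value, and WT 3h post UV replicate 2 was by far the lowest. The median of all tested promoters had the same separation and was also lowest in that library (82.7). The mean went from 99.2 ± 0.212 to 96.4 ± 3.23 (SD, n = 4 each), a difference of −2.80 points. In the fit the difference was −0.548 (SE 0.163, limma, adjusted p = 0.0544), short of the threshold, and 7.53% of all promoters had a lower value. Without WT 3h post UV replicate 1 it passed (−0.701, limma, adjusted p = 0.0216).

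The promoter was the only site over ATM that recurred between lists. Although the gene spans 146 kb, none of its other 18 sites, 17 of them inside the gene, was found in more than 1 list. The number of regions over the gene was 4, 4, 4 and 1 in the WT lists and 9, 2, 1 and 1 in the knockout lists, where 9 belongs to the deepest library.

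ATR (chr3:142449007-142578733, minus strand), the kinase activated at RPA-coated single-stranded DNA, had a promoter that differed little between groups. The percentile was 97.7 and 96.7 in WT no UV, 98.5 and 95.2 in WT 3h post UV, 99.4 and 93.9 in KO no UV, and 97.2 and 98.4 in KO 3h post UV. The lowest and the highest value both came from unchallenged knockout cells, the deepest library giving the highest. The mean was 96.9 ± 2.30 without and 97.3 ± 1.52 after UV, and the fit gave −0.00225 (SE 0.202, limma, adjusted p = 0.995).

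Inside ATR, accessibility was strong at a site in intron 25 (64.1 kb downstream of the start). Whether it lies in a repeat was not tested, as the annotation used here lists no repeats, and the same holds for the other intronic sites. It ranked at 91.7, 93.3, 95.5 and 98.3 in the WT lists and at 92.4, 96.1, 90.4 and 98.3 in the knockout lists. Its mean of 94.5 ± 3.00 was close to that of the gene's promoter, and its UV difference of 2.23 points was not called (limma, adjusted p = 0.417 over the 60324 sites open in all lists). The start of the exonuclease gene XRN1, which lies past the 3′ end of ATR, gave a further site in all 8 lists, with percentiles of 66.3 to 94.2.

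The number of open regions over ATR was 9, 7, 6 and 6 in the WT lists and 4, 3, 4 and 5 in the knockout lists. Every knockout value was below every WT value (4.0 ± 0.816 against 7.0 ± 1.41, exact permutation test, two-sided, p = 0.0286, the smallest this design allows). ATR was singled out here after its values had been seen, and it was the only one of the 9 genes with such a pattern, which 1.49% of 19259 genes with a region showed. The pattern also held for regions per list length. The 3 sites over ATR found in 2 to 7 lists were intronic, and each was in more WT than knockout lists. A further 5 sites were in 1 list each. The site at 9.04 kb (chr3:142569329-142569876, intron 1) was in all 4 WT lists at percentiles of 67.1, 73.9, 64.9 and 60.4 and in 1 knockout list, KO 3h post UV replicate 2, at 32.6. The site at 77.4 kb (chr3:142501207-142501729, intron 30) was in all 4 WT lists at 69.1, 16.5, 58.6 and 57.1 and in the same knockout list at 3.29. The site at 12.5 kb (intron 2) was in 3 WT lists and 1 knockout list. The deepest library, from knockout cells, held none of these 3 sites.

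ATRIP (chr3:48446710-48467645, plus strand), the obligate partner of ATR, had the weakest promoter of the 9. The percentile was 63.5 and 66.9 in WT no UV, 65.9 and 72.2 in WT 3h post UV, 75.7 and 65.5 in KO no UV, and 72.0 and 74.1 in KO 3h post UV. The values of all 4 groups overlapped, and 13.6% of tested promoters had a lower mean. The mean was 67.9 ± 5.39 without and 71.1 ± 3.54 after UV (0.0876, SE 0.146, limma, adjusted p = 0.696). Fold enrichment at the ATRIP promoter was 3.71 to 8.95, and 15.5 to 19.4 at that of ATM.

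The strongest open site over ATRIP belonged to another gene. At chr3:48465451-48466502, in the last exon (exon 13) of ATRIP and at the start of TREX1, the gene of a DNA exonuclease, the percentile was 97.2, 95.1, 95.8 and 87.8 in the WT lists and 97.2, 95.1, 94.1 and 94.6 in the knockout lists. Its mean of 94.6 ± 2.96 exceeded that of the ATRIP promoter in every list. A site in the 3′ flank lay at a start of SHISA5, not its MANE Select start, and had a mean of 87.8 ± 4.29. Its values were lower in all 4 UV lists (82.3 to 87.8) than in the 4 unchallenged lists (87.8 to 94.9). It did not pass the test (limma, adjusted p = 0.22). Such a separation was seen for 21.1% of all promoters, and its share over all sites was not counted. The 9 sites inside ATRIP were each in 1 list.

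TP53BP1 (chr15:43403061-43510728, minus strand), the adaptor that binds modified nucleosomes next to breaks, had the steadiest promoter. The percentile was 93.0 and 94.7 in WT no UV, 95.5 and 95.5 in WT 3h post UV, 95.6 and 95.6 in KO no UV, and 94.4 and 95.2 in KO 3h post UV. All 8 values lay between 93.0 and 95.6. The mean was 94.7 ± 1.24 without and 95.2 ± 0.547 after UV (0.0367, SE 0.139, limma, adjusted p = 0.872).

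The strongest site over TP53BP1 was not its promoter but a site in intron 15 (52.2 kb downstream of the start). Its percentile was 95.8, 99.6, 97.0 and 98.2 in the WT lists and 99.3, 98.6, 99.8 and 96.9 in the knockout lists, with a mean of 98.1 ± 1.44. It had the highest mean of all internal sites of the 9 genes that were open in every list. Its UV difference was −0.33 points (limma, adjusted p = 0.904). A further site at an alternative start, at −17.6 kb (chr15:43510108-43511247), next to a start of MAP1A, was at 95.5, 94.1, 91.7 and 82.8 in the WT lists and 96.8, 92.3, 88.6 and 90.2 in the knockout lists. There the 4 UV values lay below the 4 unchallenged values, by 6.33 points on average, without a call (limma, adjusted p = 0.157). This separation was seen for 21.1% of all promoters, and its share over all sites was not counted.

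A weak site of TP53BP1 was missing from 1 group only, a pattern whose share over all sites was not counted. The site at 69.2 kb (chr15:43423680-43424195, intron 18), singled out after its values had been seen, was at percentiles of 35.6, 61.6, 37.4 and 43.1 in the WT lists and 38.5 and 47.4 in KO no UV, and was absent from both KO 3h post UV lists.

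CLSPN (chr1:35720218-35769978, minus strand) encodes claspin, which holds CHEK1 to ATR and travels with the replication fork. Its promoter region (chr1:35769242-35770384, summit at −0.010 kb from the start) was at 94.6 and 93.6 in WT no UV, 87.1 and 79.0 in WT 3h post UV, 96.9 and 92.7 in KO no UV, and 85.7 and 89.1 in KO 3h post UV. Both genotypes were lower after UV, and the UV and unchallenged values did not overlap. The mean fell from 94.5 ± 1.80 to 85.2 ± 4.39 (n = 4 each), with differences of −11.1 points in WT and −7.43 points in knockout cells. The difference was −0.556 in the fit (SE 0.156, limma, adjusted p = 0.0459), 7.01% of all promoters had a lower value, and relative to the shift of the median promoter it was −0.342. The exact permutation test, two-sided, gave p = 0.0286, the smallest that 70 assignments allow. This value follows from the lack of overlap alone and adds nothing to it, and ATM and CHEK2 had the same value.

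The call on CLSPN was close to the threshold. It was lost with regions limited to a q-value of 0.05 or 0.01, with ranking by −log10 p, with centred log2 fold enrichment, with the percentile itself tested and with promoters found in at least 4 lists (limma, adjusted p from 0.0990 to 0.206). It was also lost without any of WT no UV replicate 1, WT no UV replicate 2, WT 3h post UV replicate 2, KO no UV replicate 1, KO 3h post UV replicate 1 and KO 3h post UV replicate 2 (limma, adjusted p from 0.0706 to 0.179), and with the shift of the median promoter removed (adjusted p = 0.156), while the direction stayed the same. The same region tested among all 60324 sites open in every list was not called (limma, adjusted p = 0.077). Fold enrichment at the promoter was 9.90 to 12.5.

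The CLSPN locus held 6 sites open in all 8 lists, the most of the 9 genes. A neighbouring site, at −1.04 kb from the start, was at 80.6 and 72.5 in WT no UV, 77.0 and 65.2 in WT 3h post UV, 80.3 and 48.7 in KO no UV, and 71.8 and 75.4 in KO 3h post UV. Unlike the promoter itself it overlapped fully between UV and no UV (limma, adjusted p = 0.946). The strongest internal site, 42.8 kb downstream (chr1:35726776-35727418) and past the end of the MANE Select transcript, varied between 26.6 and 84.2. The remaining 3 lay at the starts of C1orf216, with means of 53.8, 60.8 and 75.7.

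CHEK1 (chr11:125625163-125676255, plus strand), the effector kinase of ATR, was read at a single region. Its summit lay 1128 to 1182 bases downstream of the MANE Select start in GENCODE, next to the RefSeq starts whose upstream stretch is printed above, and the joined region (chr11:125625469-125626746) still touched the promoter window. The percentile was 93.2 and 90.7 in WT no UV, 90.3 and 89.3 in WT 3h post UV, 96.2 and 90.2 in KO no UV, and 89.8 and 93.6 in KO 3h post UV. The groups overlapped, with means of 92.6 ± 2.76 without and 90.7 ± 1.93 after UV (−0.139, SE 0.157, limma, adjusted p = 0.556). Beyond this region, only 2 further sites were found over CHEK1, each in 1 list.

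CHEK2 (chr22:28687743-28742422, minus strand), the effector kinase of ATM, shares its promoter with HSCB, a gene of iron-sulphur cluster assembly. The percentile was 94.5 and 96.4 in WT no UV, 93.5 and 88.8 in WT 3h post UV, 96.3 and 95.8 in KO no UV, and 91.6 and 90.9 in KO 3h post UV. All 4 UV values were below the 4 unchallenged values, with a mean of 95.8 ± 0.876 without and 91.2 ± 1.91 after UV. The difference of −4.55 points (−0.368, SE 0.146) did not pass the test (limma, adjusted p = 0.108), and 25.3% of all promoters had a lower value. Without WT 3h post UV replicate 1 it passed (−0.441, limma, adjusted p = 0.0492). Of 16 sites inside the gene, 15 were in 1 list, and the other, 29.3 kb downstream in intron 5, was in 5 lists.

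WEE1 (chr11:9573670-9593457, plus strand), the kinase that inhibits CDK1, was at 99.0 and 95.3 in WT no UV, 93.4 and 87.7 in WT 3h post UV, 98.4 and 97.6 in KO no UV, and 96.6 and 95.4 in KO 3h post UV. The UV and unchallenged values touched, since WT no UV replicate 2 lay below both UV values of the knockout. The mean was 97.6 ± 1.60 without and 93.3 ± 3.96 after UV (−0.485, SE 0.169, limma, adjusted p = 0.0795). Without WT no UV replicate 2 the difference passed (−0.644, limma, adjusted p = 0.0444). A weak site 1.69 kb downstream, in intron 1, was in 7 lists at percentiles of 5.93 to 66.0.

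CDC25A (chr3:48157146-48188417, minus strand), the phosphatase that activates CDK2 and is degraded when CHEK1 is active, had the highest mean percentile of the 9, which was above that of ATM in 5 of the 8 lists. The percentile was 99.0 and 99.3 in WT no UV, 98.8 and 95.7 in WT 3h post UV, 98.3 and 99.8 in KO no UV, and 99.2 and 97.6 in KO 3h post UV. The groups overlapped, and 92.1% of tested promoters had a lower mean. The mean was 99.1 ± 0.641 without and 97.8 ± 1.57 after UV (−0.359, SE 0.192, limma, adjusted p = 0.209).

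The only site of the 135 that separated the UV lists from the unchallenged lists by presence lay in the last exon (exon 15) of CDC25A, 30.7 kb downstream of the start (chr3:48157442-48157971). It was in all 4 UV lists, at percentiles of 61.0 and 28.8 in WT and 6.66 and 58.2 in knockout cells, and in no unchallenged list. It was a weak site, and over all sites 0.686% had this pattern. It no longer separated the lists when they were limited to a q-value of 0.05 or 0.01, or when a region had to cover 50% of the site. Of the 135 sites, 0 were in all 4 unchallenged lists and no UV list, against 0.0969% of all sites.

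**Figure D2:**
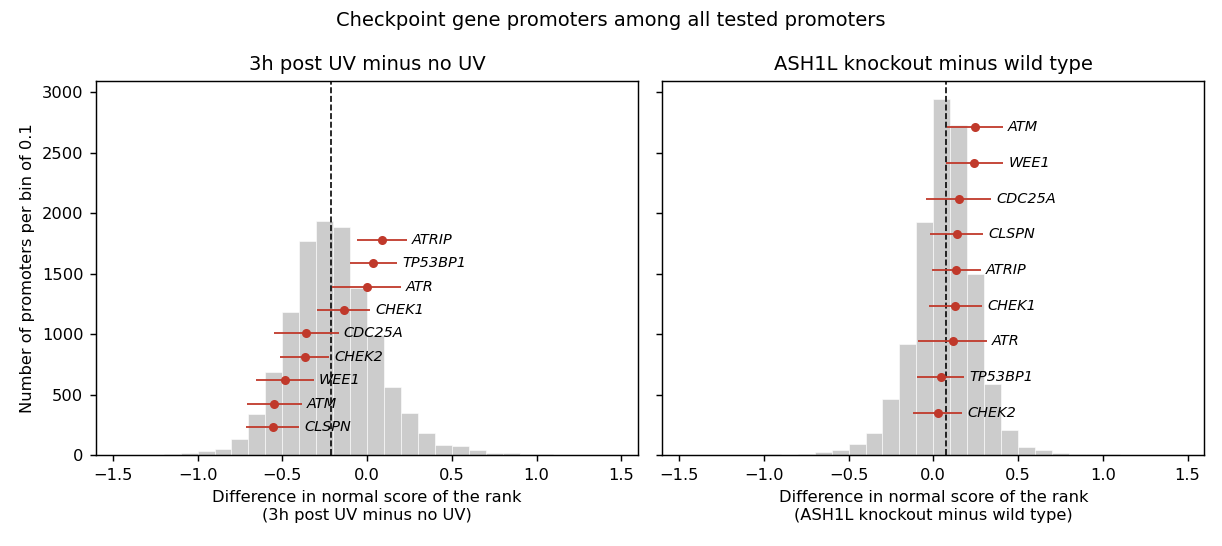
Difference in the normal score of the within-list rank (x axis) for all 11817 tested promoters (grey bars, number per bin of 0.1) and for the 9 genes (red dots with the standard error of the fit, placed at arbitrary heights), 3h post UV minus no UV on the left and ASH1L knockout minus wild type on the right; dashed lines mark the median of all promoters (−0.214 and 0.0765), and differences beyond the axis are counted in the outermost bins. CLSPN (−0.556) and ATM (−0.548) lie to the left of most promoters after UV, ATRIP (0.0876) to the right, and all 9 genes lie above 0 for genotype.

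Between genotypes no checkpoint promoter was called. By limma, 0 of 9 passed, against 0.0931% of all promoters, and 0 of 9 passed at an unadjusted p under 0.05, which 772 of all 11817 promoters did. No promoter of the 9 had knockout values that did not overlap the WT values, a pattern that 2.5% of all promoters showed. The mean percentile was higher in knockout cells for 9 of 9, and for 71.5% of all promoters, with a median difference of 1.62 points over the 9 genes and 1.09 points over all. Single libraries moved both medians. Over the 9 genes the median was 0.502 without WT 3h post UV replicate 2, 0.896 without KO no UV replicate 1, 0.910 without KO 3h post UV replicate 2 and 1.002 without WT no UV replicate 2. Over all promoters it was 0.120 without WT 3h post UV replicate 2, 0.589 without KO no UV replicate 1, 1.77 without KO no UV replicate 2 and 2.01 without WT 3h post UV replicate 1. The largest fitted differences were those of ATM (0.246, SE 0.163, limma, adjusted p = 0.841) and WEE1 (0.242, SE 0.169, limma, adjusted p = 0.846). With the shift of the median promoter removed, CHEK2 (−0.0510) and TP53BP1 (−0.0325) were lower in knockout cells.

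The response to UV did not differ detectably between genotypes at any of the 9 promoters. The test of the difference, the UV change in WT minus that in knockout cells, called 0 of 9 and 0 of all 11817 promoters (0.0%), of which 345 had an unadjusted p under 0.05. It gave −0.341 (SE 0.326) for ATM, −0.357 (SE 0.339) for WEE1 and −0.0874 (SE 0.312) for CLSPN. The standard errors of 0.279 to 0.405 over the 9 genes leave differences of the size of the CLSPN change itself within reach of the error.

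Across all sites of the 9 genes, the fixed and the sporadic parts of the landscape were sharply divided. Of the 135 sites, 21 were in all 8 lists, 18 in 2 to 7 lists and 96 (71.1%) in a single list, whereas 11.0% of all sites were in all 8 lists and 60.5% in 1. Promoter windows of the 9 genes held 12 sites, 10 of them in all 8 lists. The 4 sites at promoters of other genes in these loci were also in all 8. Inside the genes, 4 of 107 sites were in all 8 lists and 88 in 1 list. The number of sites seen in 1 list only was 22 in KO no UV replicate 1, the deepest library, and 3 in WT 3h post UV replicate 2, and the part of depth in these counts was not tested.

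**Figure D3:**
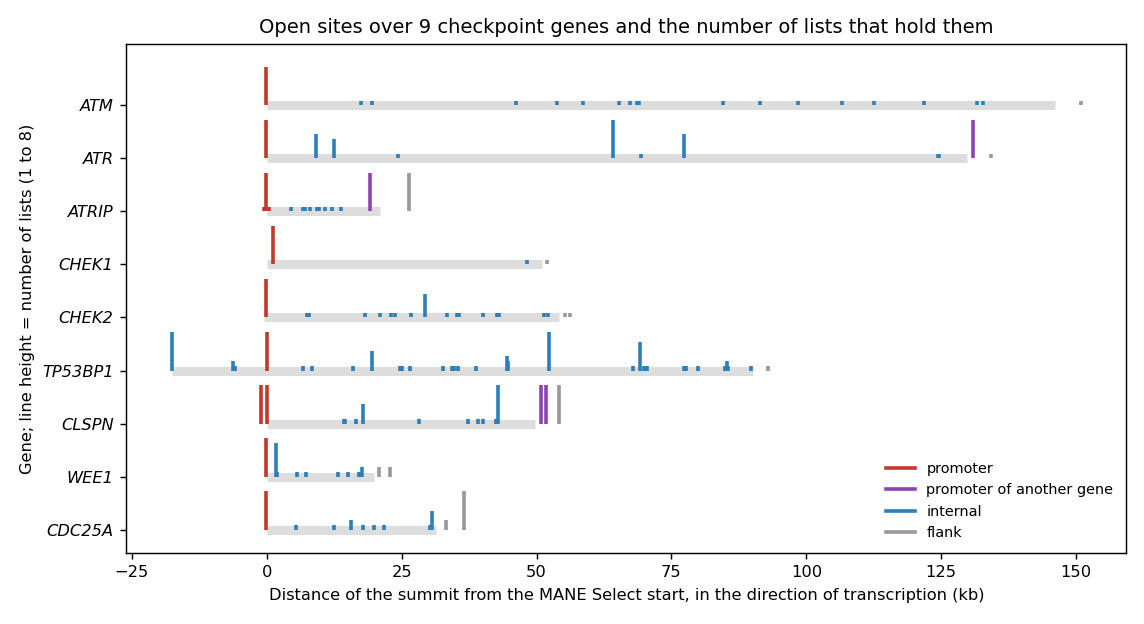
Open sites over the 9 genes by distance of the median summit from the MANE Select start (x axis, in kb, in the direction of transcription); grey bars are the gene spans, and each vertical line is a site, its height the number of lists (1 to 8) that hold it and its colour the class of the site. The 17 sites inside ATM are in 1 list each, while ATR, TP53BP1 and CLSPN have internal sites in all 8 lists.

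Of the 21 sites in all 8 lists, 0 were called for UV and 0 for genotype by limma over 60324 such sites, of which 5.84% and 0.00166% were called. At an unadjusted p under 0.05 there were 5 for UV, the promoters of ATM, CHEK2, CLSPN and WEE1 and the alternative start of TP53BP1, where 15693 of all 60324 such sites passed that limit, and 0 for genotype, where 5800 did. By presence, 0 of the 135 sites were in all 4 knockout lists and no WT list (0.187% of all sites), and 0 were in all 4 WT lists and no knockout list (0.0769% of all sites).

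**Figure D4:**
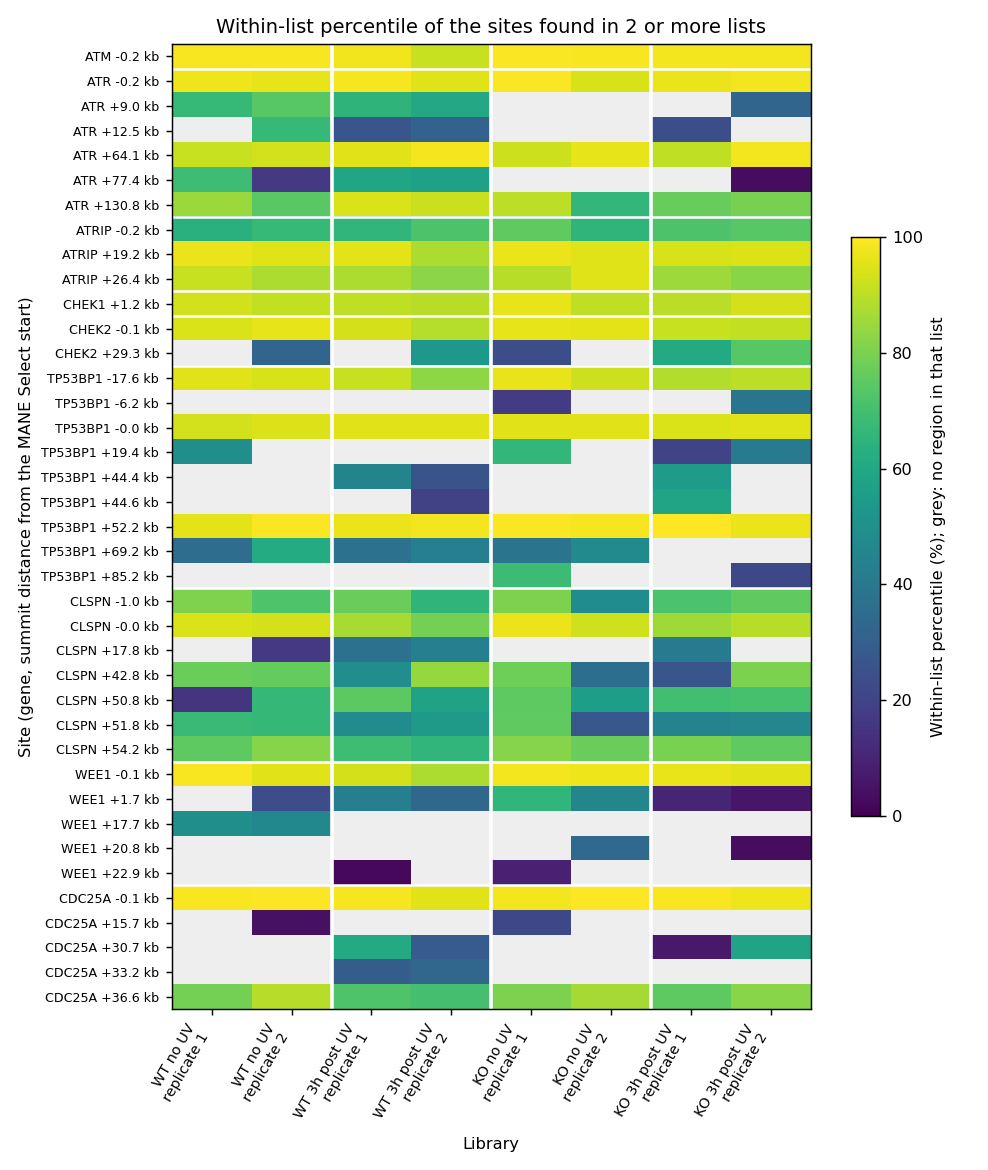
Within-list percentile (colour, 0 to 100) of every site of the 9 genes that was found in 2 or more lists, in rows by gene and distance from the MANE Select start, against the 8 libraries in columns; grey cells have no region in that list. Promoter rows and the internal sites of ATR at 64.1 kb and TP53BP1 at 52.2 kb are bright in all 8 columns, the ATR sites at 9.04 and 77.4 kb are grey in 3 of the 4 knockout columns, and the CDC25A site at 30.7 kb is grey in the 4 no UV columns.

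The number of regions over the other 8 genes gave no difference between genotypes, and for no gene did UV and unchallenged lists separate. TP53BP1 had 9, 6, 9 and 8 regions in the WT lists and 12, 5, 10 and 9 in the knockout lists. CLSPN had 7 to 10 in the WT lists and 7 to 12 in the knockout lists, and CHEK1 had 1 or 2 in every list.

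**Figure D5:**
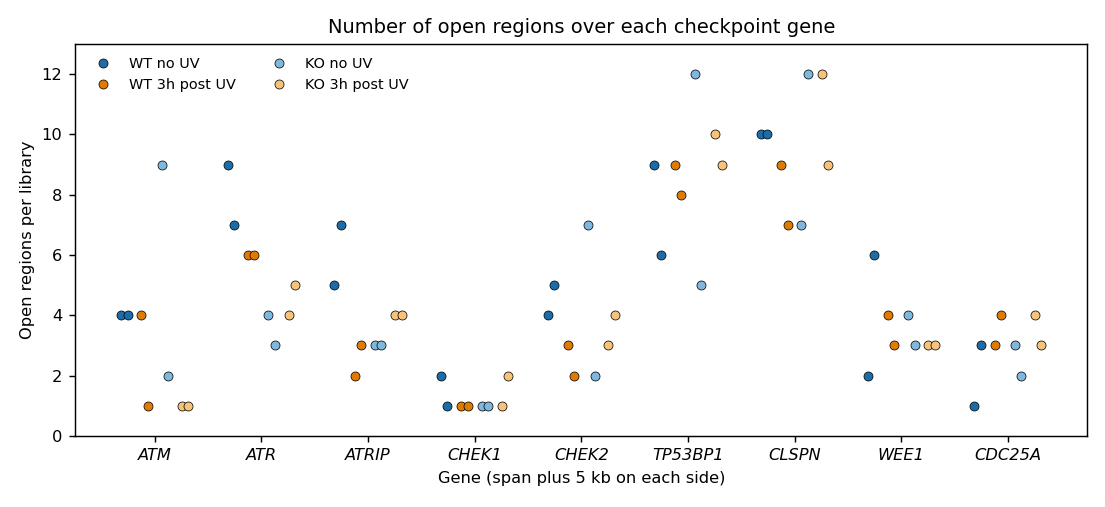
Number of open regions (y axis) over each gene span with 5 kb on each side (x axis) in the 8 libraries; each dot is a library, coloured by group. The 4 WT dots of ATR (6 to 9) lie above its 4 knockout dots (3 to 5), and the high ATM dot (9) is the deepest library.

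In base composition the 9 promoters lay around the values of other genes. In the 1001 bases around the MANE Select start, GC content was 49.3% for CHEK1, the lowest, and 73.7% for WEE1, the highest, with a median of 60.5% against 61.3% for all protein-coding genes. The stretch around the CHEK1 start does not reach the summit of its open region, and the RefSeq windows of CHEK1, which lie inside that region, had 59.3% to 62.7% GC. The ratio of observed to expected CpG was 0.618 to 0.918, with a median of 0.755 against 0.725. ATRIP, the weakest promoter, had 66.2% GC and a ratio of 0.894.

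The promoters whose 8 percentiles were most like those of each gene, by Euclidean distance over the 8 lists, were for ATM and CHEK2 the partners that read the same region, NPAT and HSCB (distance 0.0 points). The next were DCUN1D4 for ATM (0.885 points) and SMC1A for CHEK2 (2.2 points). For ATR they were NF1 and ENKUR (2.18 and 2.31), for CHEK1 NEU3 and MICAL2 (2.58 and 3.58), and for TP53BP1 MTF1 and FBF1 (2.23 and 2.33). For CLSPN they were PEX5 and RERE (3.32 and 3.52), for WEE1 CAND1 and RPL13A (2.27 and 2.37), and for CDC25A ABI1 and RPS19BP1 (1.46 and 1.50). The nearest promoters to ATRIP, LYRM9 and a gene with no symbol, ENSG00000266202, were 10.8 points away.

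Among 30 other genes of the checkpoint pathway, 28 had a promoter region in all 8 lists, and PKMYT1 and CCNE1 had one in 7. By limma, 2 of the 28 were called lower after UV and 0 higher, while 6.77% of all promoters were called and 6.17% were called lower. Both were phosphatases of the CDC25 family, of which CDC25A was not called. CDC25B went from a mean percentile of 94.7 to 85.9 (−0.557, SE 0.151, limma, adjusted p = 0.0432) and CDC25C from 99.8 to 99.1 (−0.539, SE 0.145, limma, adjusted p = 0.0430). Both calls were close to the threshold and were not followed through the alternative settings. The UV values lay below the unchallenged values without overlap for 7 of the 28, RPA2, USP28, PPM1D and PLK1 among them, against 21.1% of all promoters, and above them for 0, against 1.07%. The mean was lower after UV for 24 of 28 and for 79.7% of all promoters, with a median difference of −2.17 points against −2.84 over all. None of the 28 was called for genotype or for UV by genotype, and RAD1, a subunit of the 9-1-1 clamp, was the only one of the 28 with knockout values that did not overlap the WT values, against 2.5% of all promoters.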

How the data were processed

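Per the labels and the study's methods, the authors trimmed reads with cutadapt (version 1.9.1), aligned them with Bowtie2 (2.4.5) to hg38 (chromosome Y left out), discarded duplicate, poorly mapped and blacklisted reads, and called peaks with MACS2 (2.2.7.1) in each library; replicates were not pooled. Any shift of reads for the Tn5 offset is not given in the sources used here. The deposited values are the fold enrichment of each summit over local background, a ratio, and its −log10 p-value and −log10 q-value from the peak caller, none normalised between libraries. A q-value under 0.05 was reached by 78.8% and 78.5% of regions in WT no UV and by 80.1% and 77.4% in KO no UV. After UV it was reached by 85.7% and 94.2% in WT and by 88.5% and 87.4% in knockout cells. Every UV list thus lay above every unchallenged list in this share.

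Records sharing an interval were joined into 1 region with its highest fold. Regions overlapping or adjoining across lists formed sites. Normal scores of within-list ranks were fitted with limma 3.58.1 (R 4.3.3), 4 group means, all 8 libraries, with Benjamini-Hochberg adjustment over all features of a kind, called below 0.05. The fit was tested on simulated data with independent noise and planted UV differences. The simulation held no shift of whole libraries, so it does not cover such shifts. The p-values measure the spread between these libraries. Exact permutation tests used all 70 assignments. Depth was solved from fold and p, in relative terms. Named sites were the promoters, the strongest internal site open in all 8 lists per gene, and every site separating groups by presence or called. The genes, lists and motifs were chosen with earlier results of these data known.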

Additional observations from a re-analysis of the deposited data

Results flagged for a closer look

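At the TP53BP1 promoter both WT 3h post UV values (95.5 and 95.5) lay above both WT no UV values (93.0 and 94.7), by 1.69 points on average. Both KO 3h post UV values (94.4 and 95.2) lay below both KO no UV values (95.6 and 95.6), by −0.809 points on average. The direction of the UV difference thus differed between the genotypes, and within each genotype the UV and unchallenged values did not overlap. The test of the difference itself, the UV by genotype contrast, was 0.234 (SE 0.279, limma, unadjusted p = 0.416) and did not pass, and no promoter of the data set passed it after adjustment.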

How the results depend on the processing

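Of the single promoter differences, 298 of 342 recomputed values kept their direction and side of the threshold, most of them differences that were not called in any setting. The cause was not tested for any that changed, except that fewer libraries or features enter some settings.

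The count of promoters called for UV, 1 with CLSPN, was 0 with regions limited to q-values of 0.05 or 0.01, with ranking by −log10 p, with centred log2 fold enrichment, with the percentile itself tested, with promoters found in at least 4 lists, and with scores centred on the median promoter (the last chosen after seeing the data). It ranged from 0 to 3 with 1 library left out, 3 (ATM, CHEK2, CLSPN) without WT 3h post UV replicate 1, and the 1 promoter called without WT no UV replicate 2 was WEE1. The CLSPN difference kept its sign in all 19 alternatives and passed in 6, with adjusted p from 0.0293 to 0.206. The number of all promoters called for UV went from 800 to between 7 (percentile tested) and 2407 (without WT 3h post UV replicate 1), and was 12 without WT 3h post UV replicate 2. With the replicate number as a replicate block the count was 2, ATM (adjusted p = 0.0413) and CLSPN (0.0369), and 1265 over all promoters. Equal numbers did not pair the libraries: the correlation of their deviations was −0.0196 to 0.175 over the pairs of groups, not above 0.1 in all of them, so the block is given here only. It changed no other call of the 9.

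Sites called for UV numbered 1 (the CLSPN promoter) with centred log2 fold enrichment and 2 with sites found in at least 4 lists (TP53BP1 at 69.2 kb and the CDC25A exon 15 site), where an absent region counts as the lowest rank. In that setting 1 was called for genotype (TP53BP1 at 69.2 kb). Sites of UV lists only were 0 at q-values of 0.05 and 0.01 and at 50% overlap, and 1 to 2 with 1 library left out. Sites of WT lists only, 0 above, were 1 (ATR at 9.04 kb) at a q-value of 0.01 and at 50% overlap, and 0 to 2 with 1 library left out, 2 (ATR at 9.04 and 77.4 kb) without KO 3h post UV replicate 2. The median UV difference of the 9 promoters was −0.190 points when ranked by −log10 p and −2.93 to −1.29 with 1 library left out. Their median genotype difference was 0.444 points when ranked by −log10 p and 0.502 to 1.97 with 1 library left out.

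The differences that turned direction were not called in any setting. The UV difference of ATR was 0.0544 and 0.108 at q-values of 0.05 and 0.01, 0.0873 ranked by −log10 p, 0.0593 in log2 fold enrichment, 0.400 in percentile points, 0.0244 at equal list length, 0.0547 at any start, 0.212 centred, and −0.246 to 0.242 with 1 library left out. That of CHEK1 was 0.0474 in log2 fold enrichment and 0.0758 centred, and that of TP53BP1 −0.0530 at any start. The genotype difference of ATR was −0.124 ranked by −log10 p and −0.129 to 0.358 with 1 library left out. That of CHEK2 was −0.00375 at a q-value of 0.01, −0.00104 ranked by −log10 p, −0.0395 in log2 fold enrichment, −0.00562 at equal list length, −0.0510 centred and −0.0474 to 0.0991 with 1 library left out. That of TP53BP1 was −0.0325 centred, and that of CDC25A −0.0389 to 0.339 with 1 library left out.

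Depth limits these comparisons, since libraries with a mean pileup of 1.39 and 5.87 do not find weak sites equally, and a list without a region does not show closed chromatin. Ranks are relative within a list, so a change common to all regions would not be seen. They also depend on which regions a list holds, and more regions missed a q-value of 0.05, as a share, in every unchallenged list. In lists limited to q-values of 0.05 and 0.01, the median UV difference over all promoters was −1.96 and −1.10 points, against −2.84 in full lists. The part of list content in the UV differences was not tested.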

Other observations

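Weak sites of WEE1 and CDC25A were found in both lists of 1 group and in no other list, and a weak site of TP53BP1 in UV lists only. They were picked after their values had been seen and were not tested. The share of all sites with such patterns was not counted. In WEE1 a site 17.7 kb downstream of the start was in both WT no UV lists, at percentiles of 49.9 and 46.7. In the 3′ flank of CDC25A a site 33.2 kb downstream of the start was in both WT 3h post UV lists, at 29.6 and 33.2. In TP53BP1 a site 44.4 kb downstream of the start, in intron 12, was in 3 of the 4 UV lists, at 45.3, 26.0 and 55.1, and in no unchallenged list.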
